A study of Mus musculus with 6 samples.

Results

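The genes described here are imprinted genes measured together with Nnat and Mest: Nnat, Mest, Peg3, Igf2, Igf2r, Grb10, Plagl1, Dlk1 and Ndn. They are 9 of the 12393 genes that the array's annotation names from a probe set with 1 gene symbol, and 23 of the 20380 such probe sets. H19 was proposed as well and dropped, since its probe set carries the symbols of both H19 and Mir675. The set was chosen by measured values, the unstable minus stable difference, in which Nnat and Mest were high, so that difference is described for them and supports nothing by itself.

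Genomic imprinting is the expression of a gene from only the maternal or only the paternal copy, set by DNA methylation laid down in the germ line at imprinting control regions. Many imprinted genes act on fetal growth and are active in embryonic mesenchyme, the source of mouse embryonic fibroblasts. Paternally expressed members such as Igf2, Mest and Peg3 are known mostly as growth promoters, and maternally expressed Igf2r and Grb10 as growth inhibitors.

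Total RNA of 6 lines of mouse embryonic fibroblasts, each grown for 2 passages, was hybridised to Affymetrix 3' arrays, 1 array per line. Of the 3 chromosomally unstable lines, 2 had a homozygous hypomorphic BubR1 allele (BubR1 H/H, pair numbers 9515 and 9938). The other 1 was homozygous for the AAA allele of CDC20 (CDC20 AAA/AAA, pair number 10074). The 3 stable lines were BubR1 +/+ (9515 and 9938) and CDC20 +/+ (10074). BubR1 and CDC20 both act in the spindle assembly checkpoint, which delays chromosome segregation until every kinetochore is attached. No karyotype per line is given, nor the embryo each line was derived from, so the tests measure only the spread between these lines, and CDC20 AAA/AAA rests on 1 line.

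The values are log2 expression values, so a difference of 1 is a doubling. Array medians lay between 6.16 and 6.20, and 64.2 to 64.7% of probe sets had a value of at least 4, the level used here as the floor of detection. Of the 12 fibroblast markers listed, 11 were measured and all 11 were at or above the floor in every line. Their summed level, as log2, was 15.93 to 15.98 in unstable lines and 15.90 to 16.03 in stable lines. Xist, the RNA that silences an X chromosome in female cells, was at 10.70 to 11.16 in both lines of pair 9938, and no line of pairs 9515 and 10074 exceeded 2.94. The pairs thus differ in sex as well as in number, and one of them differs in the mutated gene, and these cannot be told apart. In such bulk RNA, fewer cells of a type and less RNA per cell cannot be told apart either.

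Promoter sequence is shown for the paternally expressed members with the highest differences, Nnat, Mest and Peg3, because their transcripts start at or near germline methylated CpG-rich DNA. Each run is the RefSeq window of 300 bases (GRCm38.p6) with the most CpG of its gene from 250 bases before to 50 bases after the transcript start, written 5′ to 3′ on the gene's strand. Capitals mark the hexamer TGCCGC or its reverse complement GCGGCA, searched on both strands, which spells the motif that the zinc finger protein ZFP57 binds, in its methylated form, at imprinting control regions in mouse cells. The Nnat window is chr2:157559828-157560127 on the plus strand, the Mest window is chr6:30737800-30738099 on the plus strand and the Peg3 window is chr7:6730370-6730669 on the minus strand.
Nnat: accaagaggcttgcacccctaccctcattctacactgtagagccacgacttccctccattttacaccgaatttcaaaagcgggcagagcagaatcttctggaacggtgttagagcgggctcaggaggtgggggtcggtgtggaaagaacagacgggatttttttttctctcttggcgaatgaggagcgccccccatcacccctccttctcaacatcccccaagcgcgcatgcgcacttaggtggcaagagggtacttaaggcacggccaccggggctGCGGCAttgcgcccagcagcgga
Mest: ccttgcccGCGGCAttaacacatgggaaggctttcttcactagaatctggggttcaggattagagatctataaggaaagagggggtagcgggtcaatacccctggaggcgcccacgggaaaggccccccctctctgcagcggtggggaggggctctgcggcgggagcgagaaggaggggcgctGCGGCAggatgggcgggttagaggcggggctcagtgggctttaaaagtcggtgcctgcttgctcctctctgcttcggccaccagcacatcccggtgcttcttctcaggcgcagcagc
Peg3: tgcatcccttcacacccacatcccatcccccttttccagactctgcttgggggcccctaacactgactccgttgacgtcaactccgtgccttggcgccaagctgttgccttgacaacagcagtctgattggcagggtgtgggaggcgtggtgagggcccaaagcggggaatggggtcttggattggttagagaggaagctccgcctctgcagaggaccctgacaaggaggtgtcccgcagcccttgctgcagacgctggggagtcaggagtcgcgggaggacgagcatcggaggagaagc

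The Nnat window holds 17 CpG dinucleotides and 1 copy of the hexamer, the Mest window 17 CpG and 2 copies, and the Peg3 window 13 CpG and 0 copies. Of all windows, 70.3%, 70.3% and 63.7% hold no more CpG than these, in that order. The median was 14.0 CpG over the 15 windows listed for the 9 genes, and 7 over all 32851 windows of 27025 genes. The hexamer was present in 6 of those 15 windows, belonging to 5 genes (Nnat, Mest, Igf2, Plagl1 and Grb10), and in 11.6% of all windows. Windows of 1 gene can overlap, and the Mest windows starting at 30737800 and 30737803 hold the same copies of the hexamer. The hexamer itself contains a CpG, and its share was not compared at equal CpG number. A match is a description of the letters, not of binding.

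Nnat encodes neuronatin, a small membrane proteolipid known for regulating intracellular calcium, and is expressed from the paternal copy. Its probe set (1423506_a_at) had log2 levels in unstable cells of 5.17 (pair 9515), 5.25 (pair 9938) and 6.02 (pair 10074), against 4.24, 4.20 and 4.10 in the stable lines in the same order. All 3 unstable lines were above all 3 stable lines, and the CDC20 AAA/AAA line was the highest. The mean was 5.48 ± 0.47 in unstable lines and 4.18 ± 0.07 in stable lines (SD, n = 3 each), a difference of 1.30 (SE 0.23), or 2.47-fold. The stable lines lay just above the floor of 4, so the fold is that of a gene near its limit of detection. Of 10 neuronal markers, 7, among them Map2, Snap25 and Dcx, were under the floor in every line, and the other 3 were at or above it in every line. The summed list was at 9.24 to 10.35 in unstable and 9.81 to 10.72 in stable lines.

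Nnat lies inside the RefSeq span of Blcap, a broadly expressed gene that is itself imprinted in mouse brain. Blcap was at 9.91, 9.80 and 9.98 in the unstable lines, against 9.90, 9.61 and 9.88 in the stable lines. Within pairs Blcap was higher in unstable than in stable cells, by 0.02, 0.20 and 0.11, a direction shared in all 3 pairs by 16.9% of all genes. The mean difference was 0.11 (SE 0.12), with overlapping groups.

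Mest, also known as Peg1, encodes an enzyme-like protein of the alpha/beta hydrolase fold that promotes fetal growth and adipocyte enlargement, and is paternally expressed. Its probe set (1423294_at) was at 9.52, 9.04 and 8.64 in the unstable lines and 8.99, 7.34 and 8.53 in the stable lines. Each unstable line was above the stable line of its own pair, but the groups overlap, because the stable line of pair 9515 was above the unstable line of pair 10074. The means were 9.07 ± 0.44 and 8.29 ± 0.85 (SD, n = 3 each, unstable and stable), a difference of 0.78 (SE 0.45), or 1.72-fold. The stable line of pair 9938 decided much of this: without it the difference was 0.31, and without the stable line of pair 9515 it was 1.13. Copg2, a coat protein gene whose end overlaps that of Mest on the other strand and which is listed here among the maternally expressed genes, was at 8.79, 8.75 and 8.41 in unstable lines and 8.56, 8.32 and 8.41 in stable lines. Its difference of 0.22 (SE 0.14) was likewise widest in pair 9938, at 0.43, and 0.00 in pair 10074.

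Peg3 encodes a zinc finger protein expressed from the paternal copy, which acts in growth and in maternal behaviour. Its brightest probe set (1433924_at) was at 11.72, 12.22 and 12.43 in unstable lines, against 11.01, 11.46 and 12.42 in stable lines. The unstable line was higher in both BubR1 pairs, by 0.72 and 0.77, while the CDC20 pair differed by 0.01. The other probe sets gave wider differences: 1417356_at was at 7.14, 8.25 and 8.89 in unstable lines and 5.38, 6.88 and 7.95 in stable lines. For 1417355_at the levels were 6.59, 7.56 and 7.90 in unstable lines and 5.17, 6.39 and 7.36 in stable lines. The mean differences were 0.50 (SE 0.38), 1.36 (SE 0.73) and 1.05 (SE 0.60) for the 3 probe sets, or 1.41-fold, 2.56-fold and 2.07-fold. These SEs leave out the pairing, so they include the spread between pairs. All 3 probe sets of Peg3 were higher in the unstable line of every pair, but in each the groups overlap, as the pairs themselves stood apart.

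**Figure D1:**
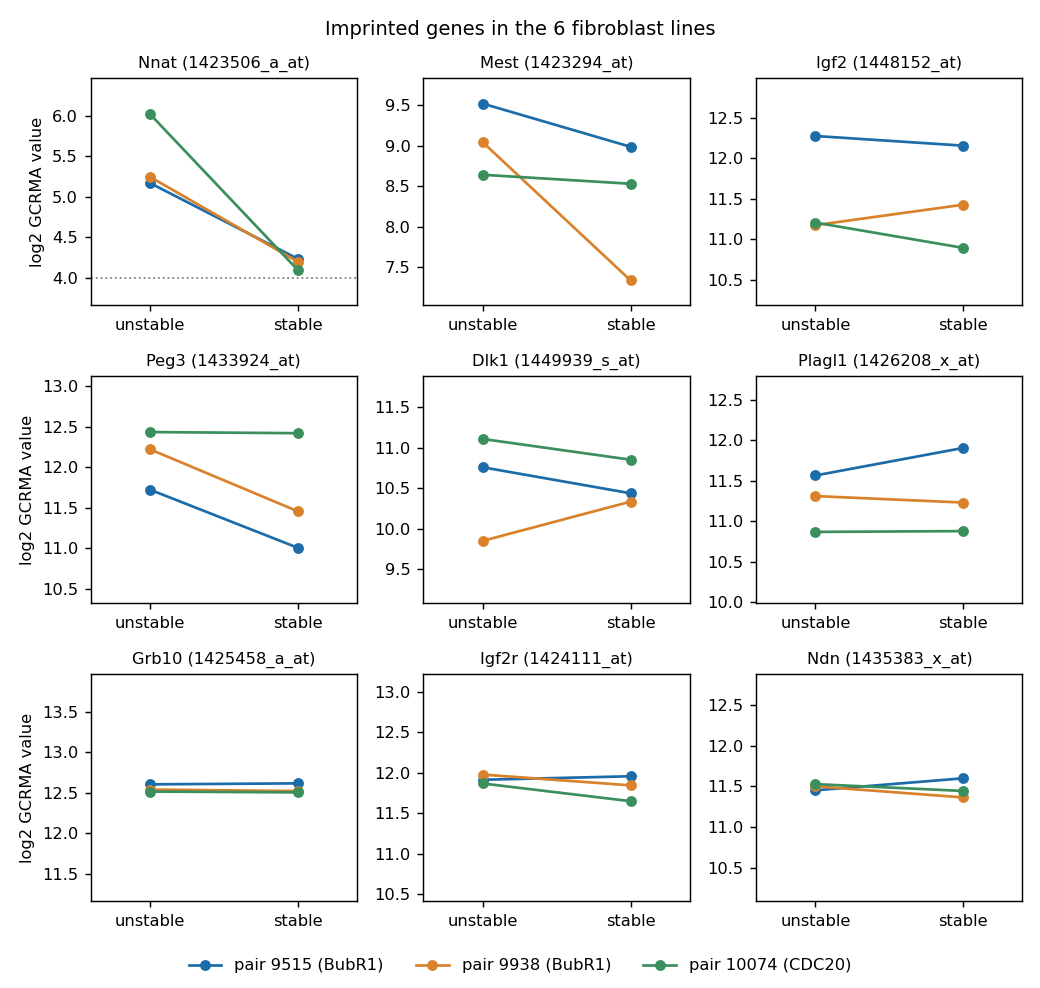
Log2 GCRMA value (y axis, each panel spanning the same height) of the brightest probe set of each of the 9 genes in unstable and stable lines (x axis); a line joins the 2 lines of a pair, and the dotted line is the floor of 4. Nnat separates the groups, at 5.17 to 6.02 in unstable and 4.10 to 4.24 in stable lines, while Grb10, Igf2r and Ndn are nearly level.

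The IGF axis of the list comprises the ligand Igf2, the receptor Igf2r and the adaptor Grb10. Igf2, insulin-like growth factor 2, is a paternally expressed fetal growth factor. Its brightest probe set (1448152_at) was at 12.27, 11.17 and 11.20 in unstable lines and 12.15, 11.43 and 10.89 in stable lines. The difference was 0.06 (SE 0.42), higher in the unstable line of pairs 9515 and 10074 and lower in that of pair 9938. The dimmer probe set (1415931_at) was at 6.49, 4.23 and 3.87 in unstable lines and 5.96, 5.46 and 3.78 in stable lines. It gave the same sign as the bright one in each pair, with both lines of pair 10074 under the floor and a difference of −1.23 in pair 9938.

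Igf2r encodes the maternally expressed receptor that clears IGF2 by carrying it to lysosomes. The bright probe set (1424111_at) was at 11.91, 11.98 and 11.87 in unstable lines and 11.96, 11.84 and 11.65 in stable lines, a difference of 0.10 (SE 0.11). The other probe set (1424112_at) was at 9.45, 9.27 and 9.04 in unstable lines and 8.93, 8.98 and 8.77 in stable lines, and there the groups do not overlap. Its difference was 0.36 (SE 0.13), or 1.28-fold, so the 2 probe sets disagree in pair 9515, where they gave −0.04 and 0.51.

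Grb10 encodes an adaptor that inhibits signalling from the insulin and IGF1 receptors, maternally expressed in most tissues and paternally expressed in neurons. Its bright probe set (1425458_a_at) was level in all lines, at 12.61, 12.54 and 12.52 in unstable lines and 12.62, 12.52 and 12.51 in stable lines. The difference of 0.01 (SE 0.09) is smaller than the spread between lines of either group. The dimmer probe sets were at 5.86, 5.21 and 5.33 in unstable and 5.37, 5.45 and 5.10 in stable lines (1430164_a_at), and at 5.04, 4.27 and 4.33 in unstable and 4.40, 4.39 and 3.92 in stable lines (1425457_a_at). Both were higher in the unstable line of pairs 9515 and 10074 and lower in that of pair 9938, with differences of 0.16 (SE 0.20) and 0.31 (SE 0.25).

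Plagl1, also known as Zac1, encodes a paternally expressed zinc finger transcription factor that binds other imprinted genes. Its bright probe set (1426208_x_at) was at 11.56, 11.31 and 10.87 in unstable lines and 11.90, 11.23 and 10.88 in stable lines, a difference of −0.09 (SE 0.30). The dimmer one (1450533_a_at) was at 5.66, 4.81 and 4.60 in unstable lines and 5.69, 4.94 and 3.74 in stable lines, a difference of 0.24 (SE 0.53) that comes from pair 10074. The probe sets thus differ in sign, and in pair 10074 the dim one rests on a stable value under the floor.

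Dlk1 encodes a paternally expressed transmembrane protein related to Notch ligands that holds back adipocyte differentiation. Its probe set (1449939_s_at) was at 10.76, 9.85 and 11.11 in unstable lines and 10.44, 10.34 and 10.85 in stable lines. The mean difference was 0.03 (SE 0.34), positive in pairs 9515 and 10074 and −0.48 in pair 9938.

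Ndn encodes necdin, a paternally expressed protein of the MAGE family that restrains cell proliferation and acts in neurons. It had 8 probe sets, of which 5 passed the filter on low values. The brightest (1435383_x_at) was at 11.45, 11.50 and 11.53 in unstable lines and 11.60, 11.37 and 11.45 in stable lines, a difference of 0.02 (SE 0.10). The other 4 differed by −0.07 (1437853_x_at), −0.04 (1455792_x_at), 0.00 (1435382_at) and 0.11 (1415923_at), and 1, 4 and 3 of the 5 were higher in the unstable line of pairs 9515, 9938 and 10074. The remaining 3 probe sets lay between 1.43 and 1.84 in unstable lines and between 1.42 and 1.92 in stable lines, under the floor everywhere. The x_at ending marks probe sets with probes that can match other sequences.

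Over the 20 member probe sets that passed the filter, 0 were called between unstable and stable lines by limma, against 0 of all 13589 tested (0%), with an unadjusted p under 0.05 for 2 member probe sets and 566 in all. The adjusted p was 0.999 for every member. Higher in the unstable line of all 3 pairs were 6 probe sets of 4 genes (Nnat, Mest, Peg3 and 1 of the Igf2r probe sets), against 15.8% of all probe sets, and 0 were lower in all 3, against 18.3%. The groups did not overlap for 2 of them, Nnat and Igf2r 1424112_at, both higher in unstable lines, against 3.47% of all probe sets. None of the 20 lay apart in the other direction, against 6.26%. Since the genes were chosen with this contrast known, nothing is read from these counts. The brightest probe sets had a median difference of 0.06, with 0.12, 0.13 and 0.11 in pairs 9515, 9938 and 10074, and all 8382 genes had a median of −0.01.

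**Figure D2:**
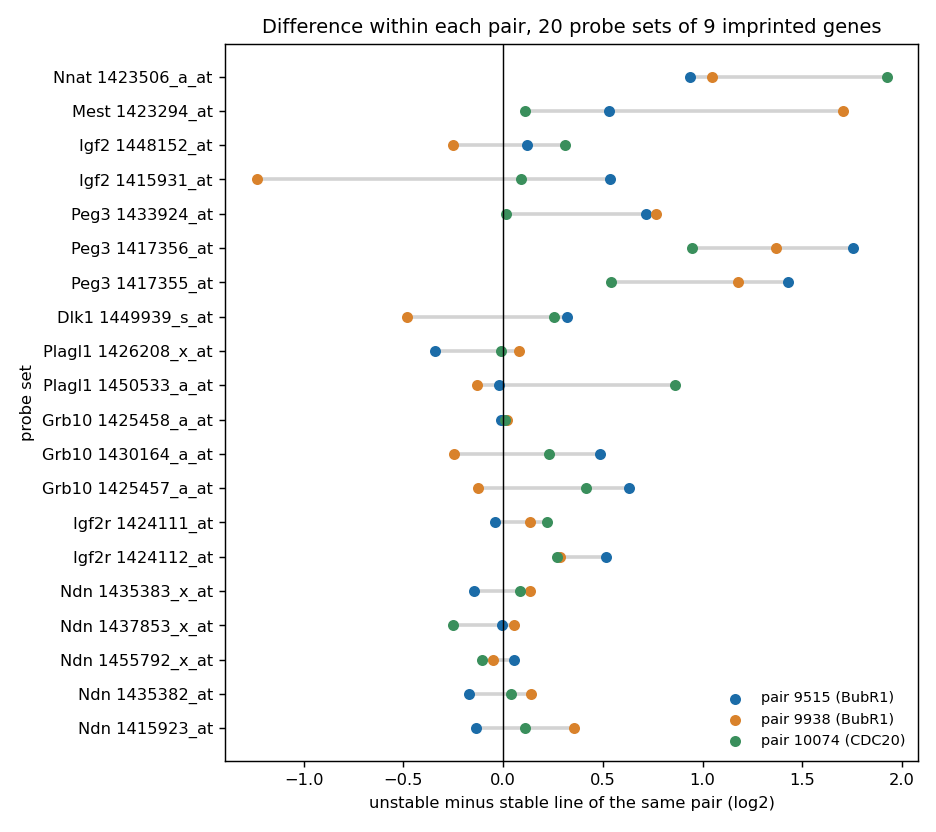
Unstable minus stable line of the same pair (x axis, log2) for the 20 probe sets that passed the filter (y axis); each point is 1 pair and the grey bar spans the 3 pairs. Nnat and 2 of the Peg3 probe sets stay clear of 0 in all pairs, at 0.54 or above, while pair 9938 sits opposite to the other pairs for Igf2, Dlk1 and 2 of the Grb10 probe sets.

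How the pairs differ from each other, with stability held in the same model, is a measure that the choice of genes did not use. It was called for 3 of the 20 member probe sets by limma's F test, against 4.30% of all probe sets (584 of 13589). They belong to only 2 genes, Igf2 and Peg3. At 1 probe set per gene, 1 of the 9 members was called (11.1%), against 5.07% of all genes. An unadjusted p under 0.05 was found for 10 of the 20 member probe sets, against 3229 of all 13589. Igf2 1448152_at averaged 12.21 in pair 9515, 11.30 in pair 9938 and 11.05 in pair 10074 (limma adjusted p = 0.0435). Both lines of pair 9515 were above the 4 other lines. Peg3 ran the other way: 1417356_at averaged 6.26, 7.56 and 8.42 in pairs 9515, 9938 and 10074 (limma adjusted p = 0.0219), and 1417355_at averaged 5.88, 6.97 and 7.63 (limma adjusted p = 0.041).

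The remaining probe sets of these genes had the same order of pairs without passing the threshold. Igf2 1415931_at averaged 6.23, 4.85 and 3.83 (limma adjusted p = 0.0768), and Peg3 1433924_at averaged 11.36, 11.84 and 12.43 (limma adjusted p = 0.103). Plagl1 had the order of Igf2 in both of its probe sets, with 11.73, 11.27 and 10.87 for 1426208_x_at and 5.67, 4.88 and 4.17 for 1450533_a_at (limma adjusted p = 0.0696 and 0.0767). For Nnat, the pair averages of 4.70, 4.72 and 5.06 did not pass (limma adjusted p = 0.565), nor did those of Mest at 9.25, 8.19 and 8.59 (0.274) or of Dlk1 at 10.60, 10.09 and 10.98 (0.156).

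The calls between pairs rest on the lines of pair 9515. Without its unstable or its stable line, the adjusted p of Igf2 1448152_at was 0.239 in both cases, that of Peg3 1417356_at was 0.148 and 0.146, and that of Peg3 1417355_at was 0.175 and 0.208. The Igf2 call was also lost without the stable line of pair 10074 (limma adjusted p = 0.0666). Macrophage markers moved with the pairs as well. Of 12 measured, all but Itgam were at or above the floor in every line. The summed level of the 12 was 12.44, 14.81 and 13.96 in the unstable lines and 12.88, 14.69 and 14.75 in the stable lines, in the order of pairs used throughout. Of the 11 macrophage markers that passed the filter, 9 were called between pairs, as were 4 of 5 adipocyte markers, against 5.07% of all genes at 1 probe set per gene. Of the 7 adipocyte markers measured, 5 were at or above the floor in every line, while Adipoq and Retn were under it in every line. The part of these cell types, of sex or of the mutated locus in the differences of Igf2 and Peg3 was not tested.

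**Figure D3:**
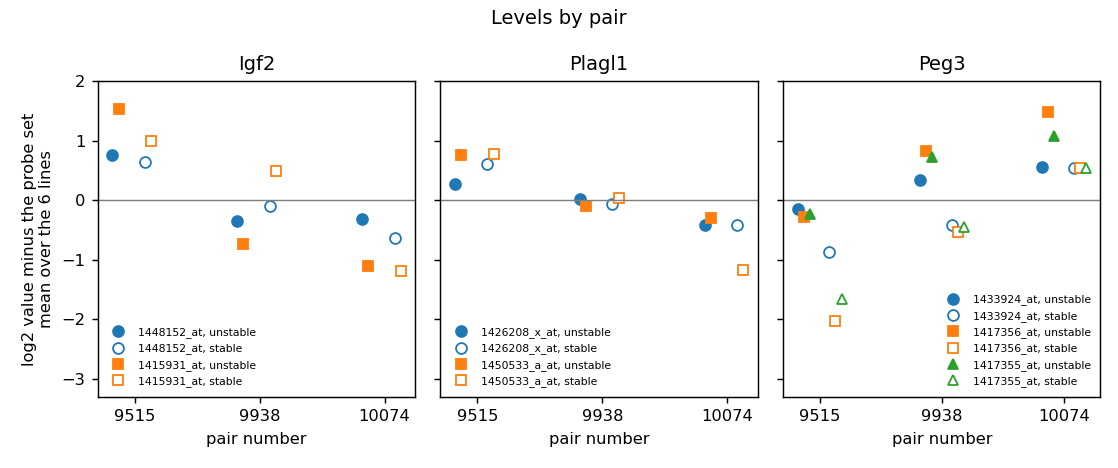
Log2 value minus the probe set's mean over the 6 lines (y axis) by pair number (x axis) for Igf2, Plagl1 and Peg3, with filled symbols for unstable and open symbols for stable lines and 1 colour and shape per probe set. Igf2 and Plagl1 are highest in pair 9515 and lowest in pair 10074 on average, and Peg3 has the opposite order.

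Whether the difference between unstable and stable lines differs by locus was tested as the BubR1 difference minus the CDC20 difference. It was called for 0 member probe sets, against 0 of 13589 (0%) by limma, with 218 at an unadjusted p under 0.05. For Nnat the BubR1 pairs gave 0.94 and 1.05 and the CDC20 pair 1.92, a contrast of −0.93 (SE 0.18, limma adjusted p = 1). For Mest the BubR1 pairs gave 0.53 and 1.70 and the CDC20 pair 0.11. Of the 20 member probe sets, 1 (Plagl1 1450533_a_at) lay on one side in both BubR1 pairs and on the other in the CDC20 pair, against 19.2% of all probe sets. The CDC20 side of each contrast is 1 line against 1 line.

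Beyond these 9 genes, listed imprinted genes were counted with 1 probe set per gene. Of the other paternally expressed genes, 9 of 25 listed passed the filter, 3 were higher in the unstable line of all pairs and 1 was lower in all, against 16.9% and 19.5% of 8382 genes. Their median difference was 0.02, and 0 were called between groups or between pairs, the latter against 5.07% of genes. Slc38a4, an amino acid transporter gene, was at 11.01, 10.61 and 10.10 in unstable lines and 10.97, 10.49 and 9.48 in stable lines, a difference of 0.26 (SE 0.42). This brightest probe set (1428111_at) had the same order of pairs as Igf2 (limma adjusted p between pairs = 0.0502). The other Slc38a4 probe set (1448889_at) did not, with pair averages of 7.135, 6.563 and 6.612 (limma adjusted p between pairs = 0.112). Sgce, which encodes a sarcoglycan and lies beside Peg10, differed by 0.20 (SE 0.13).

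Of the other maternally expressed genes, 14 of 28 passed the filter, with a median difference of 0.16. Of the 14, 6 were higher and 3 lower in all pairs, against 16.9% and 19.5% of all genes. None was called between groups, and 2, Tfpi2 and Asb4, were called between pairs, against 5.07% of all genes. Tfpi2, a Kunitz-type protease inhibitor gene, was at 7.33, 10.19 and 10.40 in unstable lines and 6.95, 8.78 and 8.88 in stable lines, a difference of 1.11 (SE 0.94; limma adjusted p between pairs = 0.029). Asb4, which encodes an ankyrin repeat protein of a ubiquitin ligase, was at 6.24, 4.22 and 4.56 in unstable lines and 5.36, 3.45 and 4.001 in stable lines, 1 of them under the floor, with a difference of 0.74 (SE 0.68; limma adjusted p between pairs = 0.0113). Both lie in the Peg10 cluster, pair 9515 was the lowest for Tfpi2 and the highest for Asb4, and both calls were lost without either line of pair 9515.

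Cdkn1c encodes p57, a cyclin-dependent kinase inhibitor that limits fetal growth. It was at 5.13, 4.98 and 5.90 in unstable lines and 4.44, 3.81 and 5.81 in stable lines, the second under the floor. It was higher in the unstable line by 0.70 and 1.16 in the BubR1 pairs and 0.09 in the CDC20 pair. Meg3, the non-coding RNA made from the maternal copy of the Dlk1 domain, was at 11.27, 11.30 and 11.28 in unstable lines and 11.23, 10.79 and 11.10 in stable lines with its brightest probe set (1439380_x_at). Its groups did not overlap there, with a difference of 0.24 (SE 0.13), against 3.54% of genes with unstable lines apart above; 2 of its 4 other probe sets (1452183_a_at and 1436057_at) were lower in the unstable line of 1 pair. Of the 22 neighbours listed for the members' domains, 8 passed, with a median of 0.07. Of the 8, 4 were higher and 0 lower in all pairs, against 16.9% and 19.5% of all genes. Meg3 and Copg2 are counted both in this list and in the maternally expressed one.

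The IGF and insulin pathway had 15 of 18 genes past the filter, with a median of 0.02. Of the 15, 3 were higher and 3 lower in all pairs, near the shares of all genes (16.9% and 19.5%). None was called between groups, and 1 of the 15 was called between pairs, near the share of all genes (5.07%). It was Foxo1, a transcription factor that insulin signalling keeps out of the nucleus. It was at 8.22, 6.95 and 7.15 in unstable lines and 8.69, 6.91 and 7.67 in stable lines (limma adjusted p between pairs = 0.0311), and the call was lost without the unstable or the stable line of pair 9515 (limma adjusted p = 0.182 and 0.202). Pik3r1, the regulatory subunit of phosphoinositide 3-kinase, was at 8.43, 8.30 and 8.46 in unstable lines and 8.16, 8.20 and 7.91 in stable lines, with groups apart, against 3.54% of genes, and a difference of 0.30 (SE 0.12). The other Pik3r1 probe set that passed the filter (1425514_at) had overlapping groups and a difference of 0.14 (SE 0.17). Igf1, the growth factor that shares a receptor with Igf2, differed by 0.03 (SE 0.52).

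Genes that maintain imprints and DNA methylation had 16 of 22 past the filter, with 1 higher and 8 lower in all pairs, against 16.9% and 19.5% of all genes, and a median of −0.11. None passed the test between groups. Ezh2, the methyltransferase of Polycomb repressive complex 2, was at 9.41, 9.31 and 8.93 in unstable lines and 9.50, 9.91 and 9.59 in stable lines. Uhrf1, which brings DNMT1 to replicating DNA, was at 10.87, 11.07 and 10.45 in unstable lines and 11.10, 11.54 and 11.08 in stable lines. For both the unstable lines lay apart below the stable lines, against 6.41% of genes, with differences of −0.45 (SE 0.17) and −0.44 (SE 0.21). A second Uhrf1 probe set was 0.09 higher in the unstable line of pair 9515. Hells, a chromatin remodeller needed for DNA methylation, and Dnmt1, the maintenance methyltransferase, differed by −0.44 (SE 0.31) and −0.25 (SE 0.11), each with overlapping groups. The dimmer Dnmt1 probe set (1422946_a_at) was at 7.89, 7.66 and 7.51 in unstable lines and 7.96, 8.52 and 8.31 in stable lines, with groups apart and a difference of −0.58 (SE 0.18). Ezh2, Uhrf1 and Dnmt1 are also genes of dividing cells, and the arrays do not measure methylation.

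**Figure D4:**
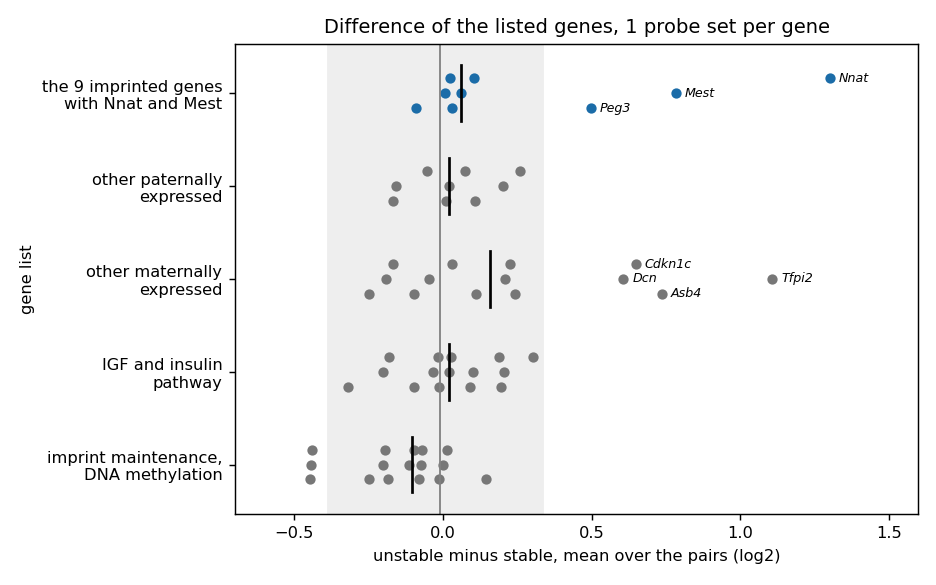
Mean difference of unstable minus stable lines (x axis, log2) for each gene of 5 lists (y axis), 1 probe set per gene; the black bar is the list's median, the grey band the 5th to 95th percentile of all genes (−0.39 to 0.34) and the grey line their median. Nnat at 1.30, Mest at 0.78 and Peg3 at 0.50 lie outside the band, as do Tfpi2, Asb4, Cdkn1c and Dcn above it and Ezh2, Uhrf1 and Hells below it, while 6 of the 9 members lie inside it.

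The genes whose levels over the 6 lines were most like those of Nnat, by Pearson's r, were Dcaf8 (0.990), Mboat2 (0.975), Mcpt1 (0.971), Cox4i1 (0.964) and Cxcl10 (0.958). Mboat2 encodes a lysophospholipid acyltransferase, Mcpt1 a mast cell protease and Cox4i1 a subunit of cytochrome c oxidase. Dcaf8 and Cox4i1 differed between groups by only 0.19 and 0.10, Mboat2 by 0.56 and Mcpt1 by 0.67. The stable line of pair 10074 had Mcpt1 under the floor, at 3.89. Cxcl10, an interferon-induced chemokine gene, was at 5.64, 6.33 and 7.40 in unstable lines and 4.91, 4.58 and 5.06 in stable lines. The genes most like Mest were Prnp (0.992), Gpr153 (0.992), Ttc17 (0.989), Acadl (0.987) and Jam3 (0.981). Prnp, the prion protein gene, differed between groups by 0.15, Acadl, a mitochondrial acyl-CoA dehydrogenase gene, by 0.15 and Jam3, a junctional adhesion molecule gene, by 0.21. Each r rests on 6 lines, with both genes read from the same arrays. These r were the highest over all genes kept and are a description. Nnat and Mest themselves had r = 0.41, and the line with the most Nnat, CDC20 AAA/AAA, had the least Mest of the unstable lines.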

How the data were processed

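The authors deposited GCRMA log2 values of 22626 probe sets on 6 arrays, made with R 2.15.3 and GCRMA 2.28.0 per the submitters' processing notes; array background correction and normalization were therefore theirs. No source used here names the genome build of the array's annotation. The platform annotation names 1 gene for 20380 probe sets, several for 691 and none listed for 1555; only the first were used. A probe set was kept if 3 or more arrays had a log2 value of 4 or higher (13589 kept). Precision is limited by the number of arrays.

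limma 3.58.1 in R 4.3.3 (lmFit, eBayes, two-sided, Benjamini-Hochberg over all kept probe sets, threshold 0.05) gave unstable minus stable without a block, the F test between pairs in an additive model, and the contrast of BubR1 and CDC20 over 4 genotype groups. SDs are over 3 lines. SEs are limma's from the fits without a block, so they include the spread between pairs. The alternatives were the filter, 1 probe set per gene, a repeat of quantile normalization, limma's trend with robust fitting, the pair number as a block and leaving out each line. Each test was tested on simulated data.

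Same-numbered lines deviated together (correlation of deviations from the group means 0.768, 0.612 and 0.588; other combinations −0.61 to 0.103), so the titles' numbers were taken to pair the lines. Members, lists and tests were chosen with earlier results of these data known. All member probe sets naming 1 gene are named. Per list, up to 4 genes are chosen by the largest difference of one sign in all pairs with log2 of at least 4 in every line, and up to 4 by the F between pairs, from which examples are given; Blcap and Copg2 are named as host and neighbour, and the 5 genes most correlated with Nnat and with Mest by r. Per-gene results use the probe set with the highest mean. The lists figure also labels genes that differ by over 0.45.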

Additional observations from a re-analysis of the deposited data

Results flagged for a closer look

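Of 41 probe sets examined, the 20 kept for the members and those of the other listed imprinted genes with every line at or above the floor, 8 differed one way in both BubR1 pairs and the opposite way in the CDC20 pair, against 19.2% of all probe sets, and 0 passed limma's test of that difference (adjusted p = 1 for each). The count of 8 in 41 is near the share of all probe sets, so nothing is read from it. The CDC20 side of this pattern is 1 pair of lines. Among the members this held for Plagl1 1450533_a_at, with 0.86 in the CDC20 pair, whose stable line was under the floor at 3.74, against −0.02 and −0.13 in the BubR1 pairs. It also held for Peg10, a retrotransposon-derived gene needed for the placenta (1.10, against −0.28 and −0.79), Airn, the RNA antisense to Igf2r (0.78, against −0.09 and −0.46), Sfmbt2, a Polycomb gene (0.48, against −0.05 and −0.37), and Peg12 (0.23, against −0.47 and −0.26). The CDC20 pair was the lower one for Nap1l5 (−0.50, against 0.01 and 0.32), Dcn, the decorin gene (−0.17, against 1.39 and 0.60), and Osbpl5 (−0.016, against 0.12 and 0.22). No test for outlying lines was run within the groups of 3 lines. Fits that left out each line in turn are described in the next section.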

How the results depend on the processing

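Calls between unstable and stable lines stayed at 0 under every alternative run, with the pair number as a replicate block included (0 of 13589, 0%, 1460 at an unadjusted p under 0.05), as did the contrast of BubR1 and CDC20; leaving out a CDC20 line could not be fitted there. The count between pairs, 584 with 3 member probe sets, became 1348 with 9 member probe sets under limma's trend with robust fitting, and 1 member probe set, Igf2, with 1 probe set per gene. Leaving out a line gave 1 to 1137 calls and 0 to 8 member calls: 1 without either line of pair 9515, 1137 without the unstable and 951 without the stable line of pair 9938. Without both lines of pair 9515, an alternative chosen after seeing the data, 8 were called and 0 of the members. Over fits that left out a line or a pair, Nnat's difference was 0.99 to 1.49, Mest's 0.31 to 1.13, Peg3's 0.19 to 0.89 and Igf2r's 0.02 to 0.18; the other 5 genes took both signs (Igf2 −0.30 to 0.39). Averaging probe sets gave 0.97 for Peg3, 0.16 for Grb10 and 0.23 for Igf2r, against 0.50, 0.01 and 0.10. Precision is limited by 3 lines per group and 1 line per CDC20 genotype, and 3 of the 20 member probe sets kept had a value under log2 4.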
